A study of Arabidopsis thaliana with 2 samples.

Results

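HINKEL, TETRASPORE, POK1, POK2, PAKRP1, PAKRP1L, kinesin-12E and PAKRP2 are 8 Arabidopsis genes for kinesins of the phragmoplast and the division plane, taken by locus code out of 27444 protein-coding genes on the 5 nuclear chromosomes. The loci are AT1G18370, AT3G43210, AT3G17360, AT3G19050, AT4G14150, AT3G23670, AT3G44050 and AT4G14330, in the same order. For each gene, every deposited peak that overlapped the gene or the 1000 bp to either side by at least 1 bp was taken. The gene table used here lists HINKEL as HIK, TETRASPORE as TES and PAKRP1L as KINESIN-12B. It gives kinesin-12E and PAKRP2 by locus code alone, so these names rest on common usage.

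The data came from whole seedlings of the ecotype Col-0 at 9 days after germination, expressing the transcription factor MYB3R3 fused to green fluorescent protein (GFP). Both groups carried this fusion and had no other treatment. They were 1 ChIP library, precipitated with an anti-GFP antibody, and 1 library of input DNA. The question is which genes MYB3R3 occupies. The labels state neither the promoter of the fusion, nor the MYB3R3 genotype of the host plants, nor how many lines were used. The ChIP library was read as its list of 2931 peaks, and the input was not used here. How many reads lie behind a peak is unknown, and a single ChIP library gives no replicate error and no test.

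Plant cells divide by building a cell plate from the inside outwards. The phragmoplast, an array of antiparallel microtubules, brings vesicles to the plate and widens until the plate meets the parental wall at a site marked before mitosis. Kinesins are motors that move along microtubules, and several plant families of them work only or mainly at this stage. Proteins with 3 MYB repeats, such as MYB3R3, are known to act on genes of the G2/M phase, and HINKEL belongs to the textbook targets of the family. MYB3R3 is known as one of its repressor-type members.

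MYB3R3-GFP peaks were found at 7 of the 8 genes (87.5%), with TETRASPORE as the exception. Under the same rule 13.9% of all protein-coding genes had a peak. Long genes offer more room for a peak, and among the protein-coding genes at least as long as PAKRP2, the shortest of the 8 with 3442 bp, 19.4% had one. The highest peak of each of the 7 genes was also among the 733 highest-scoring peaks of the list, whose lowest score is 28.57. A peak of that rank was found for 4.14% of all protein-coding genes and for 6.77% of those at least as long as PAKRP2. The genes were chosen with earlier results of these data known, so these shares stand side by side without a test.

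Each peak carries a score given by the authors, and its formula is not given in the sources used. It ranks peaks within this list and measures neither affinity nor expression. At the 7 genes the highest score per gene ran from 43.97 to 130.87, a 2.98-fold span. Over all 2931 peaks the score had a median of 17.36 and quartiles of 11.98 and 28.53. The order of the 7 genes from high to low was PAKRP1L, PAKRP2, HINKEL, kinesin-12E, POK2, PAKRP1 and POK1. Without a second ChIP library, it cannot be said which neighbours in this order differ beyond their error.

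**Figure D1:**
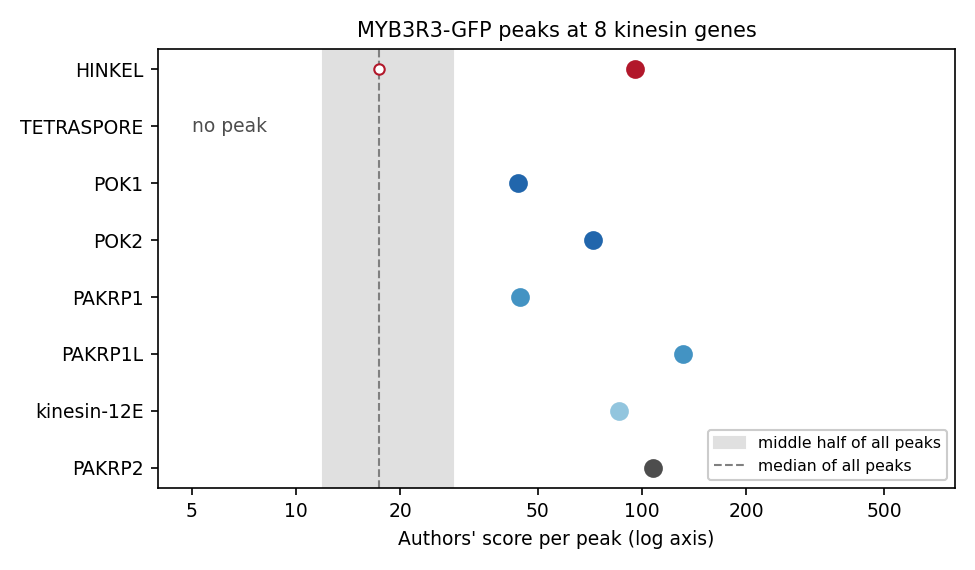
The authors' score of every peak at the 8 kinesin genes on a log axis, with 1 row per gene, a filled point for the highest peak and an open point for a second peak. All 7 filled points lie to the right of the grey band, which spans the quartiles of all 2931 peaks (11.98 to 28.53) around their median (17.36, dashed line). The open point of HINKEL lies on the median, and TETRASPORE has no point.

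HINKEL and TETRASPORE are kinesin-7 motors that bind and activate a MAP kinase kinase kinase, which is needed for the phragmoplast to widen. HINKEL serves cytokinesis in somatic cells, and TETRASPORE is best known for cytokinesis after male meiosis. HINKEL had a peak and TETRASPORE had none. The HINKEL peak was 367 bp wide, on chromosome 1 from 6324166 to 6324532 (TAIR10), with a score of 95.68. It had rank 155 among the peaks, of which 94.7% scored lower. It covered the higher-coordinate end of the gene, with 213 bp inside it and the midpoint 29 bp inward of the end.

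HINKEL was the only one of the 8 genes with a second peak. This peak, from 6324729 to 6324928 on the same chromosome, lay 350 bp outside the gene and was separated from the first by 196 bp. Its score of 17.36 equals the median of all peaks, and the first peak scored 5.51 times as much. The second peak also lay within 1000 bp of the next protein-coding gene, AT1G18390, and of the non-coding gene AT1G18382. The first peak lay within 1000 bp of neither. AT1G18390 lies 1157 bp from HINKEL, and the first peak stopped just short of its 1000 bp window. Among all protein-coding genes with a peak, 11.3% had 2 or more.

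TETRASPORE had no peak in the gene or within 1000 bp of it, nor within 100 kb. The nearest peaks on chromosome 3 were one from 15357061 to 15357291, 160.8 kb away with a score of 10.15, and one from 14750985 to 14751369, 439.4 kb away on the other side with a score of 33.57. The stretch between them was 605.7 kb long, held 46 protein-coding genes and had no peak at all. Of all protein-coding genes, 4.08% likewise had no peak within 100 kb, and the median gene had 6. Gene density in these surroundings was not compared, here or for kinesin-12E below. A gene without a peak is one where nothing passed the authors' threshold; weaker binding was not detectable in a list of peaks, and whether reads could be mapped as well in this stretch as elsewhere was not tested.

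Kinesin-12E lies on the same chromosome, 622.3 kb from TETRASPORE, in similarly sparse surroundings. It had a peak of 455 bp, from 15818412 to 15818866, with a score of 86.06 and rank 188. The next peaks were 216.5 kb away on one side and 127.1 kb on the other, so this peak was the only one within 100 kb of the gene. At most 1 peak within 100 kb was seen for 9.22% of all protein-coding genes. The other 6 genes had between 6 and 14 peaks within 100 kb, their own included. Kinesin-12E belongs to the kinesin-12 family, whose members are mostly tied to the phragmoplast, and has been described at the spindle.

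**Figure D2:**
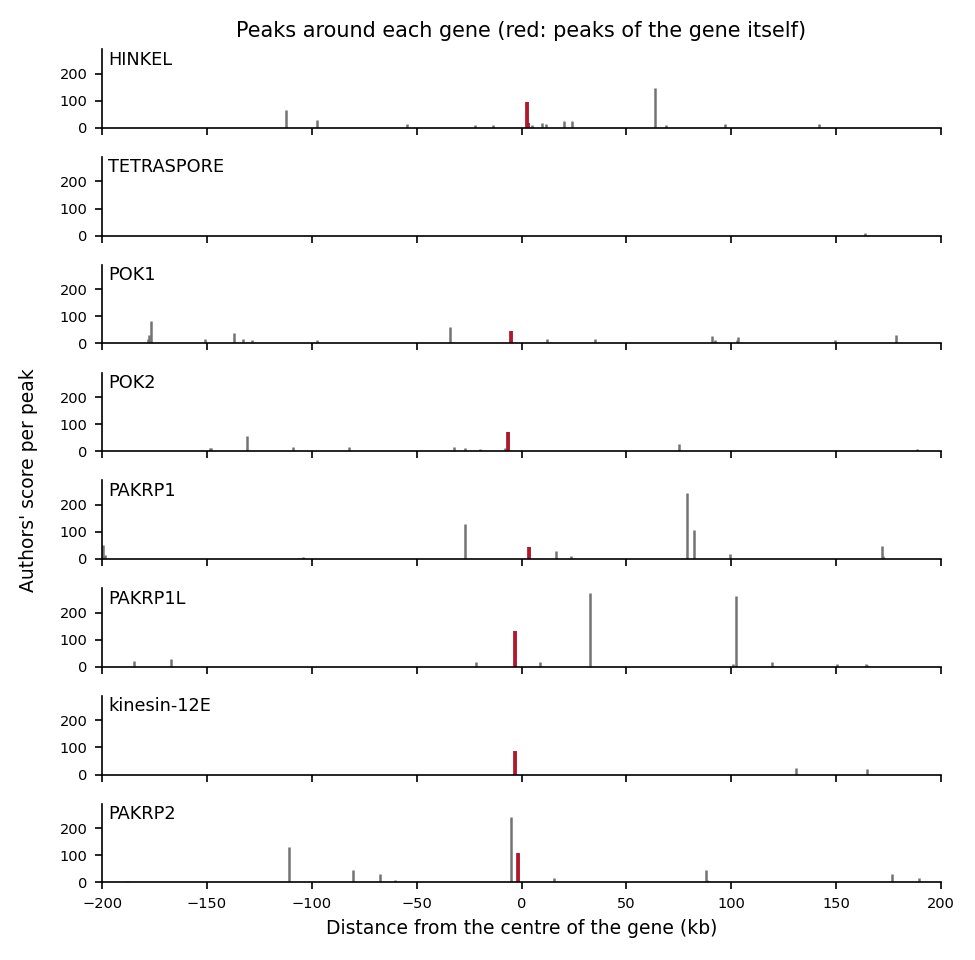
Peaks within 200 kb of the centre of each of the 8 genes, with distance in kb on the horizontal axis and the authors' score as the height of each line. Red lines are peaks at the gene itself and grey lines are all other peaks. TETRASPORE shows 1 low peak at the right, 160.8 kb from the gene with a score of 10.15, while kinesin-12E shows its own peak (86.06) with no other within 100 kb.

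POK1 and POK2 are the phragmoplast orienting kinesins, a pair of kinesin-12 motors that stay at the division site through mitosis and guide the phragmoplast to it. Both genes had 1 peak each, at the lower-coordinate end. The POK2 peak, on chromosome 3 from 6577546 to 6577866, had a score of 72.13 and rank 248. The POK1 peak, on chromosome 3 from 5935793 to 5936166, had a score of 43.97 and rank 468, the lowest of the 7. The POK2 score was 1.64 times the POK1 score, with no error to set this against. These are the longest genes of the set, POK1 with 10661 bp and POK2 with 12530 bp, yet neither had a peak elsewhere in its body.

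The POK2 peak touched no other protein-coding gene, although the non-coding genes AT3G19045 and AT3G03795 lay within 1000 bp of it. A further peak with a score of 13.1 lay 1679 bp outside POK2, beyond the window. The POK1 peak also fell within 1000 bp of AT3G17350, which lies 503 bp from POK1. Its midpoint lay 99 bp inside POK1, and the POK1 end was the nearest gene end.

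PAKRP1 and PAKRP1L are a pair of closely related kinesin-12 motors at the midzone of the phragmoplast, where microtubule plus ends meet. They are known to replace each other in dividing male gametophytes. Their scores differed more than those of POK1 and POK2, by 2.95-fold. PAKRP1L had the highest score of the set, 130.87 (rank 87), in a peak of 677 bp on chromosome 3 from 8518871 to 8519547. PAKRP1 had 44.33 (rank 459), in a peak of 580 bp on chromosome 4 from 8164980 to 8165559.

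The sharing of the 2 peaks with neighbours also differed. The PAKRP1 peak touched no other gene. The PAKRP1L peak lay within 1000 bp of AT3G23660 as well, whose nearest end is 1191 bp from PAKRP1L. Of the PAKRP1L peak 60.9% lay within the gene, and of the PAKRP1 peak 40.5%, so the midpoint of the PAKRP1 peak fell 55 bp outside the gene.

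PAKRP2 is a phragmoplast kinesin outside the kinesin-12 family that has been linked to the transport of vesicles to the cell plate. Its peak, on chromosome 4 from 8243790 to 8244417, was 628 bp wide and had a score of 107.5 (rank 124). The neighbouring gene AT4G14320 lies 129 bp from PAKRP2, so the peak spans the gap between them and touches both. A stronger peak with a score of 242.84 lay 3249 bp from PAKRP2 and within the window of AT4G14320, but not within that of PAKRP2. PAKRP2 and PAKRP1 are on the same chromosome, 78.8 kb apart, and their peaks were separate.

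The 7 genes had their peaks at a similar position. In all 7 the highest peak crossed an end of the gene, with between 143 and 412 bp inside it. Among all protein-coding genes with a peak this held for 40.4%, and among those whose highest peak ranked in the first 733 for 54.8%. It also held for 7 of the 10 other kinesin genes and 6 of the 8 partner genes with a peak, both described below. The midpoint was between 18 and 128 bp from the gene end in all 7, inside the gene in 5 and outside in POK2 and PAKRP1. Midpoints within 200 bp of an end were found for 49.0% of all protein-coding genes with a peak and for 53.1% of those whose highest peak ranked in the first 733. In these shares over all protein-coding genes, a shared peak was counted once for each gene whose highest peak it was. They therefore include genes that merely lie within 1000 bp of a peak at a neighbour. None of the 7 had a peak at its opposite end or in the body of the gene. The end was the one with the lower coordinate in 5 genes and with the higher coordinate in HINKEL and PAKRP1. Transcript direction was not used, so the ends are not named as 5′ or 3′.

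**Figure D3:**
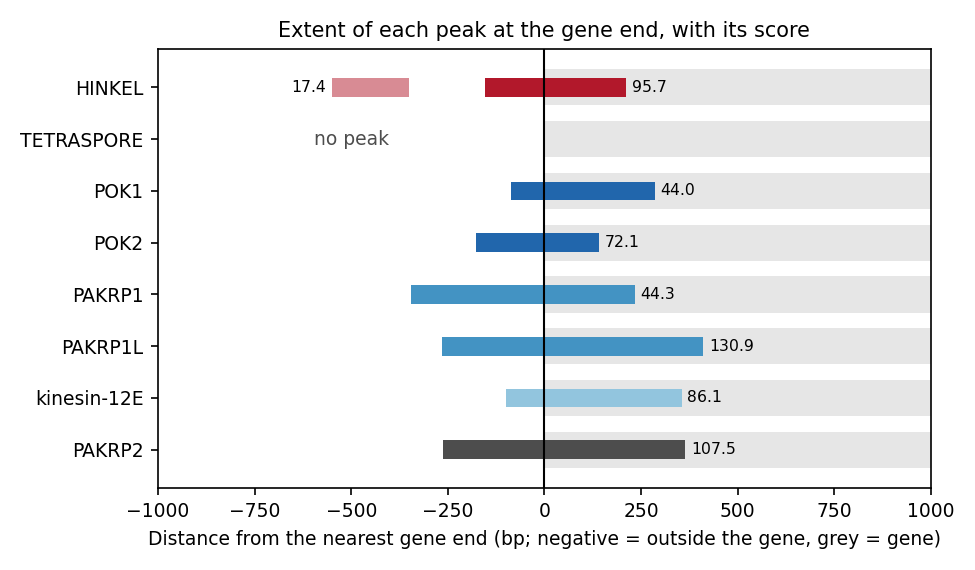
Extent of each peak relative to the nearest end of its gene, in bp, with the outside of the gene at negative values and the gene in grey. The number beside each bar is the authors' score. The 7 highest peaks all cross the zero line, the second HINKEL peak (17.4) lies 350 bp outside the gene, and TETRASPORE has no bar.

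The 7 highest peaks were 321 bp (POK2), 367 bp (HINKEL), 374 bp (POK1), 455 bp (kinesin-12E), 580 bp (PAKRP1), 628 bp (PAKRP2) and 677 bp (PAKRP1L) wide. All peaks of the list had a median of 275 bp and an upper quartile of 362 bp, which 6 of the 7 exceeded. All 7 ranked among the 733 highest-scoring peaks, and the widths of those 733 alone were not compared. Whether the 7 were wide for their score was therefore not tested. PAKRP1L combined the highest score with the greatest width among the 7, but PAKRP1 was wide with a low score for this set. In 4 of the 7 genes (HINKEL, POK2, PAKRP1 and kinesin-12E) the highest peak touched no other protein-coding gene. Among all protein-coding genes with a peak, 28.6% had a highest peak of this kind. The HINKEL peak was of this kind only narrowly, and the kinesin-12E peak had the non-coding gene AT3G44045 within 1000 bp.

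Of the phragmoplast and division-plane kinesin genes 7 of 8 had a peak, against 10 of 16 other kinesin genes (62.5%). The peak was among the 733 highest-scoring in 7 of the 8 and in 8 of the 16; these differences were not tested. The share over all protein-coding genes was 13.9% for any peak and 4.14% for a peak among the 733 highest-scoring. With only peaks that touch 1 protein-coding gene the counts fell to 4 of the 8 and 4 of the 16, against 4.22% of all protein-coding genes. The remaining kinesin-12 gene, AT3G20150, had a score of 31.97, below all 7. Kinesin-5 genes, whose products slide spindle microtubules apart, had peaks in 3 of 4 cases, AT2G28620 with 652, AT2G36200 with 143.86 and AT2G37420 with 13.88, while AT3G45850 had none. AT2G28620 and AT2G36200 therefore scored above PAKRP1L, the highest of the 7.

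Kinesin-14 genes, for minus-end directed motors of the spindle and of other functions, had a peak in 4 of 8 cases. ATK5 and ATK1, which act in the spindle, had scores of 98.84 and 92.14, beside 95.68 for HINKEL. ATK4 had 36.41 and ATK3 6.89. ATK2 had none. KAC1 and KAC2, best known for chloroplast movement, and ZWI, a calmodulin-binding kinesin best known for trichome shape, had none either. The other kinesins were listed by family, not by lack of a role in division. Of the kinesin-4 genes, AT5G60930 had 167.51 and KICP-02 (AT3G50240) had 71. The KICP-02 peak lay 214 bp outside the gene and also touched another protein-coding gene. Of the 10 other kinesin genes with a peak, only AT2G28620, ATK3, ATK4 and ATK5 had one that touched no other protein-coding gene. FRA1, a kinesin-4 of cell wall formation, had none.

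Partners of these kinesins at the phragmoplast and the division plane had a peak in 8 of 17 cases (47.1%), against 13.9% of all protein-coding genes. In 6 of the 17 the peak was among the 733 highest-scoring, against 4.14% of all protein-coding genes. The partner count rests on shared peaks: with only peaks that touch 1 protein-coding gene it was 1 of 17 (FUSED), against 4.22% of all protein-coding genes. In the MAP kinase cascade that HINKEL and TETRASPORE activate, 2 of 7 genes had a peak. These were ANP3, a kinase at the top of the cascade, with 76.75, and MKK6, the kinase below it, with 63.86 and a second peak of 20.54. ANP1, ANP2, MPK4, MPK11 and ATMPK13 had none. The HINKEL score was higher than that of either gene of the cascade with a peak, with no error to set this against. The peaks of ANP3 and MKK6 also touched another protein-coding gene each. TETRASPORE was without a peak, like most genes of the cascade.

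Of the genes for MAP65 proteins, which bundle the antiparallel microtubules that phragmoplast kinesins work on, MAP65-4 had 162.51 and MAP65-3 (also called PLEIADE) had 80.05. MAP65-1 and MAP65-2 had none. Both protein kinase genes of cytokinesis in the list had a peak, RUNKEL with 54.01 and FUSED, whose product is a partner of PAKRP1 and PAKRP1L, with 13.13. At the division site, TANGLED, which marks the division plane and depends on POK1 and POK2 to stay there, had 86.14 in a peak lying wholly inside the gene. RANGAP1, another protein of that site, had 23.37. AT5G12150 and AT5G19390, listed for the same site but not named in the gene table, had none. The scores of POK1 (43.97) and POK2 (72.13) lay between those of RANGAP1 and TANGLED.

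**Figure D4:**
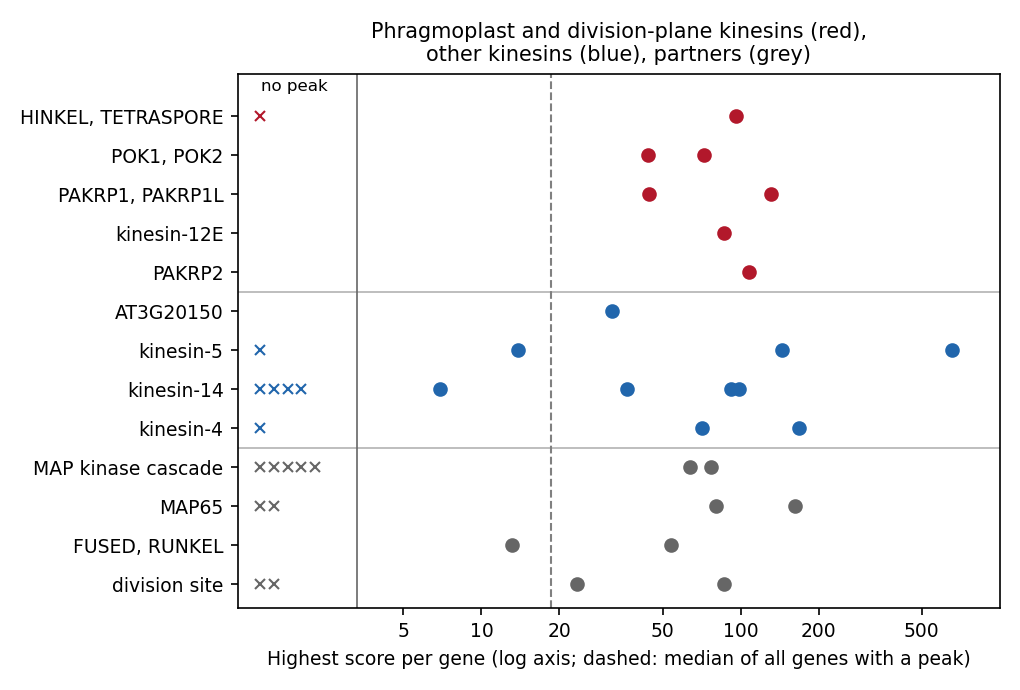
Highest score per gene on a log axis for the 8 phragmoplast and division-plane kinesin genes (red), 16 other kinesin genes (blue) and 17 partner genes (grey), grouped by family or role, with crosses in the left field for genes without a peak. The 7 red points lie between 43.97 and 130.87, while blue points run from 6.89 to 652 and grey points from 13.13 to 162.51. The dashed line is the median over all protein-coding genes with a peak (18.49).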

How the data were processed

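The authors deposited 1 list of 2931 peaks with a score per peak, from 1 ChIP library. The submitters' processing notes name MACS2 (without a version), SAMtools 0.1.18 and Bowtie 0.12.7, with no role for each, and the build TAIR10. The use of the input, the peak threshold and the formula of the score are not given in the sources used. The deposited starts were taken to count from 0, and coordinates are printed counting from 1; a peak's midpoint stood for its position.

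Gene positions came from a table of TAIR10.1. Whether it matches the TAIR10 peaks was checked with peaks moved by up to 5000 bp. Unmoved, 77.3% of midpoints lay within 500 bp of a gene end, the highest share, and the median was 40.7% where peaks were moved by at least 4000 bp. Moved by 100 bp to either side, the share was 76.8% and 77.0%. The check therefore cannot tell an offset of that size from none. No gene coordinates are printed. Strand, promoter sequences and protein sequences were not used here, so the planned motif and protein comparisons were not made. The overlap call was checked on simulated peaks, planted at 6 distances from 200 genes each. Named are all 8 genes, every gene of the kinesin and partner lists, and genes that share a peak with one of the 8. The genes and lists were chosen with earlier results of these data known. Python 3.11.15, pandas 2.3.3, NumPy 2.4.6 and matplotlib 3.10.9 were used.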

Additional observations from a re-analysis of the deposited data

How the results depend on the processing

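Of 9 alternatives for the number of phragmoplast and division-plane kinesin genes with a peak, 8 gave the same 7 of 8: windows of 0, 500 and 2000 bp, the 1466 and the 733 highest-scoring peaks, midpoints, at least 50% of the peak in the window, and the nearest gene end. With only peaks that touch 1 protein-coding gene, 4 of the 8 kept a peak, since the peaks of POK1, PAKRP1L and PAKRP2 are shared; 4 of the 16 other kinesin genes and 1 of the 17 partners did, against 4.22% of all protein-coding genes. The other 8 alternatives kept both of these counts within 1.5 times. Under these 8 the share of all protein-coding genes ran from 4.14% (733 highest-scoring peaks) to 17.8% (2000 bp window). Against genes at least as long as PAKRP2, a choice made after the data were seen, the share with a peak was 19.4% instead of 13.9%. The median score over the 7 genes was 86.06 with every window. Each of their highest peaks overlaps its gene, so windows of 0 and 500 bp could change neither the median nor the count. The midpoint and 50% rules could not lower the count either, since none of these peaks reached 1000 bp outside its gene. A window of 2000 bp cannot lose a peak, and the nearest peak to TETRASPORE was 160.8 kb away. The 1466 highest-scoring peaks include the 733, so they could not give a lower count than the 733 did. Motif and protein comparisons were not run. No paired analysis was possible because the series has 1 ChIP library, and no library could be left out. Read depth is unknown, so binding below the authors' threshold was not detectable.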
